A study of Homo sapiens with 12 samples.

Results

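The comparison described here set full-length MED12 against MED12 without its PQL and Opa domains, both overexpressed in HEK293, a long-established line of human embryonic kidney cells. Its members are the 6 of 12 arrays of the study whose titles name one of these constructs, 3 for each, and the values are described for the 14432 of 22011 array rows that carry 1 gene symbol. A row summarises the probes of one transcript cluster, and a value is a log2 intensity after RMA, so a difference of 1 is a 2-fold difference. Of the other rows, 2408 carry several symbols and 5171 carry none.

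Full-length MED12 had an engineered Kozak sequence and an N-terminal tag of nuclear-localized GFP, in the plasmid pcDNA5/TO. The PQL/Opa-deleted construct lacked the C-terminal PQL and Opa domains and had that tag and that plasmid too. Nuclear GFP alone in pcDNA5/TO was the control of the study, and its 3 arrays are given here as the background level. A further 3 arrays, from cells with a hairpin RNA against MED12 made by the H1 promoter in peGFP-C1, enter here only through the estimate of the spread between replicates. All groups were transfected by lipofection after 24 hours of growth and harvested 48 hours later, and viable GFP-positive cells were sorted for 20 minutes. The cells kept their own MED12 gene in all groups, and the limits of the deletion and the amount of protein made from each construct are not stated in the sources used here.

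MED12 is one of the kinase module proteins of Mediator, which carries signals from transcription factors to RNA polymerase II. Its N-terminal part activates the kinase CDK8 through cyclin C. The PQL region, named after its many prolines, glutamines and leucines, is known as a docking surface for beta-catenin, SOX9 and the histone methyltransferase G9a, which MED12 links to the repressor REST. The Opa region at the C-terminal end is rich in glutamine. The comparison therefore asks which transcript levels differ between an overexpressed protein that has and one that lacks this C-terminal part.

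The 6 arrays had medians of 3.39 to 3.50, and the standard deviation of their values was lowest in PQL/Opa-deleted replicate 1, at 1.45, and highest in PQL/Opa-deleted replicate 3, at 1.60. Markers of HEK293 cells were on the arrays of both constructs: KRT8, a keratin of simple epithelia, was 7.13 to 7.44 with full-length MED12 and 7.08 to 7.70 with the deleted form, and VIM, the intermediate filament vimentin, was 5.79 to 6.04 with full-length MED12 and 5.92 to 6.11 with the deleted form. The mean log2 value over the 9 measured HEK293 genes lay lower than these. It was 4.90, 4.67 and 4.79 in the full-length arrays and 4.66, 4.86 and 4.77 in the PQL/Opa-deleted arrays. Over the 9 genes the median difference was 0.00 and 0 had an unadjusted p under 0.05 (limma). Over 13 measured markers of blood, endothelium, liver, muscle and fibroblasts the median difference was -0.02, again with 0 at that level. Their mean log2 value was 2.65, 2.49 and 2.54 in the full-length arrays, 2.92, 2.47 and 2.38 in the PQL/Opa-deleted arrays and 2.51 to 2.94 in the GFP arrays. None of the 13 was listed at 0, and no detection call came with the values.

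The differences between the constructs centred on 0 across the 14432 rows. The median difference, full-length minus PQL/Opa-deleted, was -0.0006, with quartiles of -0.10 and 0.11, and 49.9% of rows lay above 0. After adjustment over all 22011 rows, 1 of the rows with 1 symbol rose with full-length MED12 relative to the deleted form (limma, adjusted p under 0.05; 0.00693% of rows) and 0 fell (0%). At an unadjusted p under 0.05 there were 111 higher rows (0.769%) and 67 lower rows (0.464%). These 178 rows compare with 722 for a table with no differences. Their number depends on the fit: it was 114 without full-length replicate 1, 360 with a replicate block, 434 without the 3 arrays of least spread, 650 with array weights and 96 with rows above the median level only. In 528 rows all full-length arrays lay above all PQL/Opa-deleted arrays (3.66%), and in 402 rows they lay below (2.79%).

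The data also bound the size of most differences in array value, row by row. The 95% confidence interval lay inside a 2-fold difference, up or down, in 13527 rows (93.7%), with a median standard error of 0.21. Only 8 rows had a point estimate more than 2-fold higher with full-length MED12 and 2 more than 2-fold lower, and these are named here after their values were seen. The higher rows were MED12, DNAJB1, PSME2 (a proteasome activator subunit), UBE2F (a NEDD8-conjugating enzyme), NPHS1 (nephrin of the kidney filter), LSM3 (an RNA-binding protein of the splicing machinery), SCGB1D2 (a secretoglobin) and ENSA (a phosphatase regulator). The lower rows were OR5T3, an olfactory receptor, and GPR19, an orphan G protein-coupled receptor. In OR5T3, GPR19, SCGB1D2 and ENSA both construct means were under 2.86. The ENSA row (3574460) is numbered close to that of HSP90AA1 (3580179) on chromosome 14, whereas RefSeq places ENSA on chromosome 1. Which genomic copy the probes of these rows read was not tested. Of these 10 rows, MED12 alone passed. PSME2 shows how wide a point estimate can be, at 1.39 ± 0.96 (SE).

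**Figure D1:**
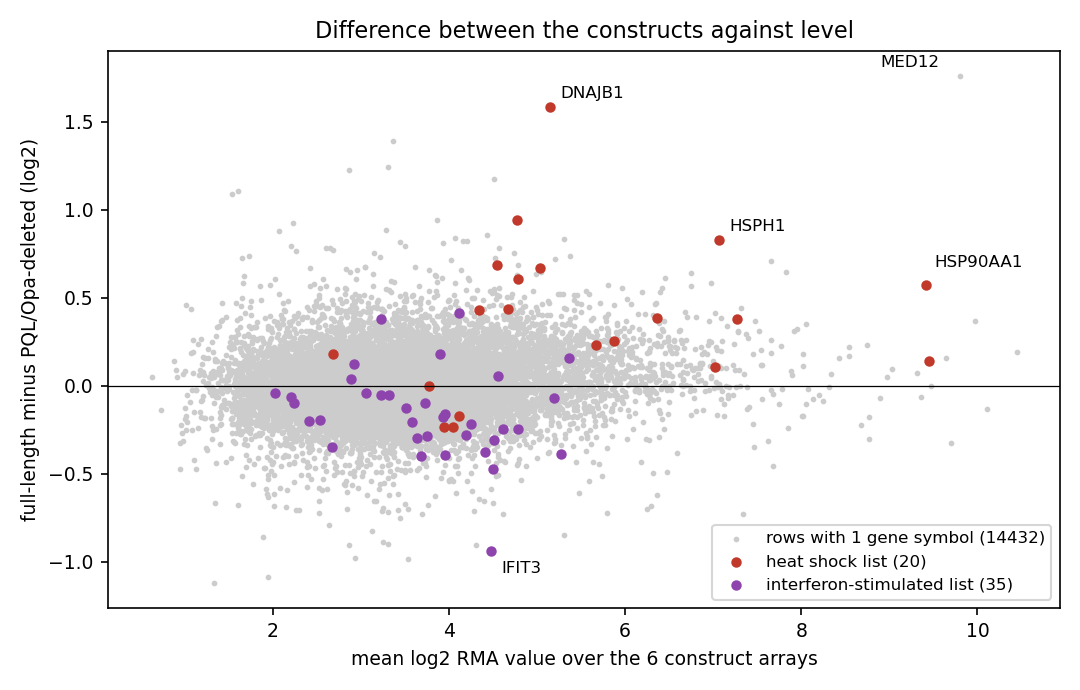
Difference between the constructs (full-length minus PQL/Opa-deleted, log2, vertical axis) against the mean log2 RMA value over the 6 construct arrays (horizontal axis), 1 point for each of 14432 rows with 1 gene symbol. MED12, at 1.76, and DNAJB1, at 1.58, stand highest, the 20 heat shock genes (red) lie mostly above 0, and the 35 interferon-stimulated genes (purple) mostly below.

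The MED12 row (3980758) was the row that passed. Its log2 value was 10.63, 10.66 and 10.75 in the full-length arrays, 8.62, 8.90 and 9.25 in the PQL/Opa-deleted arrays and 4.03, 4.56 and 4.66 in the GFP arrays. The groups did not overlap, and both constructs stood far above the level in the GFP arrays, where the row reads the cells' own MED12. Each array averages a sorted population, so more cells with a transcript and more transcript per cell cannot be told apart. The difference between the constructs was 1.76 ± 0.20 (SE, n = 3 each; 95% interval 1.32 to 2.20), a 3.38-fold higher value with full-length MED12 (limma, adjusted p = 0.0421). The replicates of full-length MED12 lay closer together (SD 0.06) than those of the deleted form (SD 0.32). Probes placed in the deleted domains, if the row has any, read no PQL/Opa-deleted transcript, and the placement of the probes is not given in the sources used here. A lower amount of the deleted transcript and the loss of probed sequence cannot be told apart in this row. In every other row, a difference in the amount of the 2 constructs and the absence of the domains cannot be told apart either.

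The call on MED12 rests near the threshold. The adjusted p (limma) was over 0.05 in 9 of the 12 leave-one-out fits, each without 1 array, while the difference stayed between 1.61 and 1.92. It was 0.308, 0.365 and 0.215 without full-length replicates 1, 2 and 3, 0.179 without PQL/Opa-deleted replicate 1 and 0.308 without replicate 2. It was 0.0509 and 0.0922 without shRNA replicates 2 and 3, and 0.0798 and 0.0646 without GFP replicates 2 and 3.

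**Figure D2:**
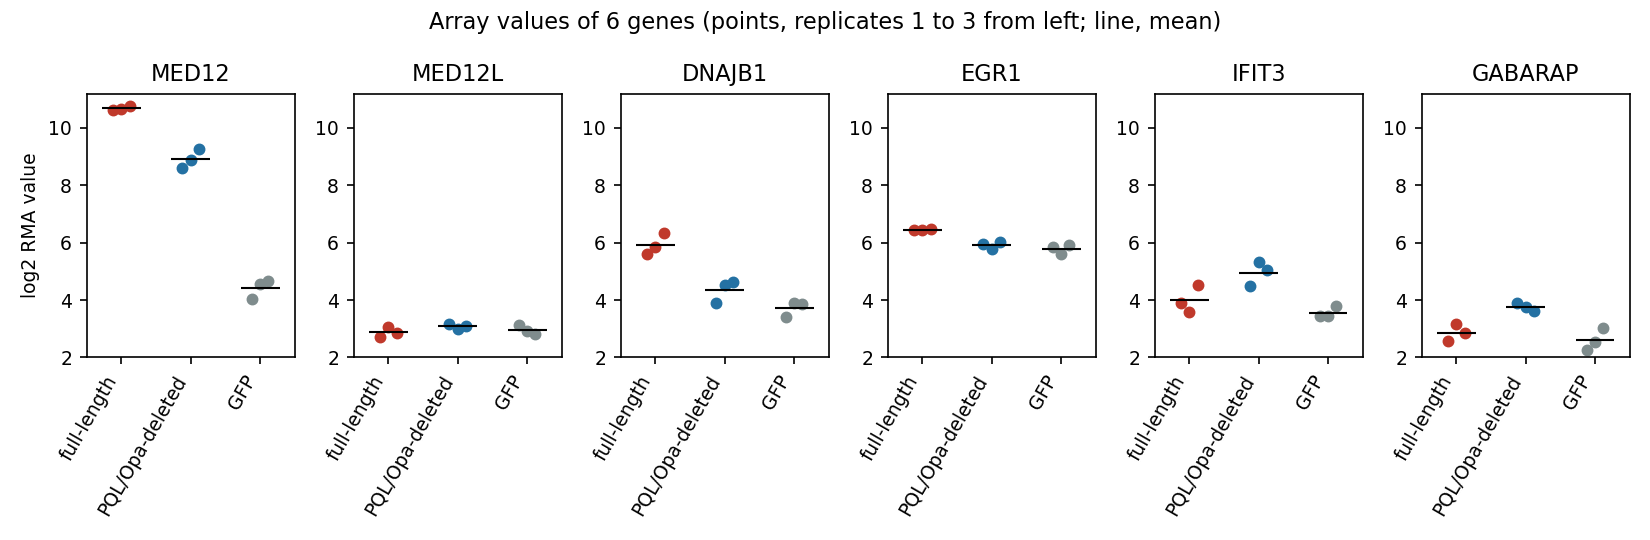
Log2 RMA values (vertical axis) of MED12, MED12L, DNAJB1, EGR1, IFIT3 and GABARAP in the arrays with full-length MED12, PQL/Opa-deleted MED12 and GFP, 3 arrays each (points, replicates 1 to 3 from the left; line, mean). MED12 averaged 10.68 with full-length MED12, 8.92 with the deleted form and 4.41 with GFP, whereas IFIT3 and GABARAP had their highest mean with the deleted form.

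The other genes on the kinase module list did not pass. MED12L, the paralogue of MED12, had log2 values of 2.71, 3.06 and 2.86 with full-length MED12, 3.17, 2.98 and 3.09 with the deleted form and a mean of 2.95 with GFP. The construct groups overlapped, and the difference was -0.20 ± 0.18 (SE; limma, adjusted p = 1.00). CDK8, the kinase, had 4.76, 5.28 and 5.00 with full-length MED12 and 3.89, 4.90 and 4.97 with the deleted form, a difference of 0.43 ± 0.33 (SE) with PQL/Opa-deleted replicate 1 the lowest array. CCNC, the cyclin, had a difference of 0.08, MED13 and MED13L, which tether the module to core Mediator, had 0.11 and 0.07, and CDK19, the paralogue of CDK8, had 0.00. Of the 7 module genes, MED12 was the 1 that passed. In core Mediator, 0 of 21 measured subunits had an unadjusted p under 0.05, near the background of 0.769% higher and 0.464% lower over all rows, and the list had a median difference of 0.10.

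Heat shock genes, which encode the chaperones that fold proteins and hold damaged ones, formed the list that lay farthest from 0. The heat shock factor HSF1 switches them on through heat shock elements, repeats of a short unit in alternating orientation. Of 29 listed genes 20 had a row of their own, 16 of these had higher means with full-length MED12, and the median difference was 0.38, against -0.0006 over all rows. At an unadjusted p under 0.05, 8 of the 20 were higher (40.0%, against 0.769% of all rows) and 0 lower, and 0 passed after adjustment (limma). In 10 all full-length arrays lay above all PQL/Opa-deleted arrays (against 3.66% of all rows), and in 1, HSPB1, they lay below. The list was known from earlier results of these data, so its counts are a description and not independent support.

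The promoters of 3 of the 8 genes with an unadjusted p under 0.05 are shown because they hold heat shock elements. Sequences are from RefSeq (GRCh38.p14), from 250 bases before an annotated start to 50 after it. They run 5′ to 3′ on the strand of the gene, with the element in capitals. DNAJB1 has 3 listed starts, HSP90AA1 2 and SERPINH1 2, and the first whose promoter held the element is shown. DNAJB1 lies at chr19:14518348-14518647 on the minus strand, HSP90AA1 at chr14:102086995-102087294 on the minus strand and SERPINH1 at chr11:75562003-75562302 on the plus strand.
DNAJB1: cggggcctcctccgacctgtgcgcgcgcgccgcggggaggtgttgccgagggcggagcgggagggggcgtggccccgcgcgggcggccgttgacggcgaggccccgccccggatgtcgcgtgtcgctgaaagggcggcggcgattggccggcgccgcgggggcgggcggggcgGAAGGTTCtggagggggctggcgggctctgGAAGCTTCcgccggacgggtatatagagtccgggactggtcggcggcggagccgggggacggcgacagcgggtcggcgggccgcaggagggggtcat
HSP90AA1: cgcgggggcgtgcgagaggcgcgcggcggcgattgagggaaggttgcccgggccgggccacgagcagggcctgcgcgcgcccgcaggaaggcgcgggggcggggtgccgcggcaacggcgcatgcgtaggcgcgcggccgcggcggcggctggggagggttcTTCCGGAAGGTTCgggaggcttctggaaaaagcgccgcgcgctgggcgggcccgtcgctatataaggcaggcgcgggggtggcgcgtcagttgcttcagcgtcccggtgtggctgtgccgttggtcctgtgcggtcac
SERPINH1: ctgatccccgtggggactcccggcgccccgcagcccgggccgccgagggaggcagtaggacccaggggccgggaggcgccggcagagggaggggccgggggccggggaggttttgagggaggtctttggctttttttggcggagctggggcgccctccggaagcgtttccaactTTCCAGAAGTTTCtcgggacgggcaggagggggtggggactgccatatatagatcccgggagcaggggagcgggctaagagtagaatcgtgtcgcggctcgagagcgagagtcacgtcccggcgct
In DNAJB1 the capitals mark 2 matches to the 2-unit element GAANNTTC, starting 77 and 47 bases before the start. In HSP90AA1 and SERPINH1 they mark 1 match each to the 3-unit element GAANNTTCNNGAA or TTCNNGAANNTTC, starting 88 and 76 bases before it.

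Both strands were searched, and every 3-unit match holds a 2-unit match. The 2-unit element was searched only as GAANNTTC, which reads the same on both strands. Pairs in the order TTCNNGAA were not counted. The 3-unit element was present in 0.49% of 35116 promoters and in at least 1 promoter of 0.608% of genes, against 6 of the 18 heat shock genes with a promoter in the table. The 2-unit element was present in 6.77% of promoters and in 8.21% of genes, against 9 of those 18. Within the list, the 3-unit element was in 2 of the 8 genes with an unadjusted p under 0.05 and in 4 of the 10 others, and the 2-unit element in 4 of 8 and 5 of 10. HSPA1L, 1 of the 8, also held a 2-unit match and is not printed. HSPH1, HSPA4L, DNAJB4 and BAG3 had no match to either searched form in this window, which leaves pairs in the order TTCNNGAA unknown.

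DNAJB1, an HSP40 co-chaperone that delivers clients to HSP70, had the second smallest p of the rows with 1 symbol on the higher side. Its log2 value was 5.59, 5.86 and 6.35 with full-length MED12, 3.90, 4.52 and 4.64 with the deleted form and 3.41, 3.88 and 3.86 with GFP. All full-length arrays lay above all the others. The difference was 1.58 ± 0.30 (SE), a 3.00-fold higher value, and did not pass (limma, adjusted p = 0.923; 1.36 to 1.75 when 1 array was left out).

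The next members by p were other chaperones. HSP90AA1, the stress-inducible HSP90, had log2 values of 9.87, 9.73 and 9.49 with full-length MED12, 9.15, 8.89 and 9.35 with the deleted form and 9.69, 9.55 and 9.66 with GFP. Here the deleted form lay below both other groups, and the full-length and GFP arrays overlapped. HSPA1L, an HSP70 family member, had 4.66, 5.04 and 4.97 with full-length MED12, 4.37, 4.04 and 4.20 with the deleted form and a mean of 3.72 with GFP. HSPH1, a nucleotide exchange factor of HSP70, had 7.56, 7.39 and 7.49 with full-length MED12, 6.34, 6.77 and 6.85 with the deleted form and a mean of 6.18 with GFP. In both genes the construct groups did not overlap, and the differences were 0.68 ± 0.21 and 0.83 ± 0.27 (SE). HSPA4L, a relative of HSPH1, had a difference of 0.61 ± 0.21, and DNAJB4, another HSP40, had 0.67 ± 0.23 (SE). BAG3, a co-chaperone in the clearance of damaged proteins, had 0.44 ± 0.17, and SERPINH1, the collagen chaperone, had 0.43 ± 0.16 (SE).

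The other 12 members ranged from -0.24 to 0.94. CHORDC1, an HSP90 co-chaperone, had the 0.94, with an SE of 0.82. Members with small differences between the constructs included HSPA8, the constitutive HSP70, at 0.14, STIP1, which links HSP70 to HSP90, at 0.11, and HSPA2 at 0.00. HSF1 itself had -0.17 ± 0.25 (SE), and HSPD1, the mitochondrial chaperonin, had -0.24.

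Read beside the GFP arrays, which both constructs share as a background, the heat shock list had a median of 0.71 with full-length MED12 and 0.23 with the deleted form. The mean of the deleted form lay between those of GFP and full-length MED12 in 13 of 20 genes, and in 7 of the 8 with an unadjusted p under 0.05, the exception being HSP90AA1. All full-length arrays lay above all GFP arrays in 12 genes, and all PQL/Opa-deleted arrays did so in 5. The share of all rows that lay apart from GFP in this way was not computed, so these counts are only a description. The mean log2 value over the 20 genes was 5.73, 5.64 and 5.71 in the full-length arrays, 5.20, 5.34 and 5.37 in the PQL/Opa-deleted arrays and 4.85, 5.21 and 5.14 in the GFP arrays. The construct arrays did not overlap in this mean, whereas PQL/Opa-deleted replicate 1, the array of least spread, lay below GFP replicate 2. Without that replicate the count of 8 became 5 and the median difference 0.26.

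**Figure D3:**
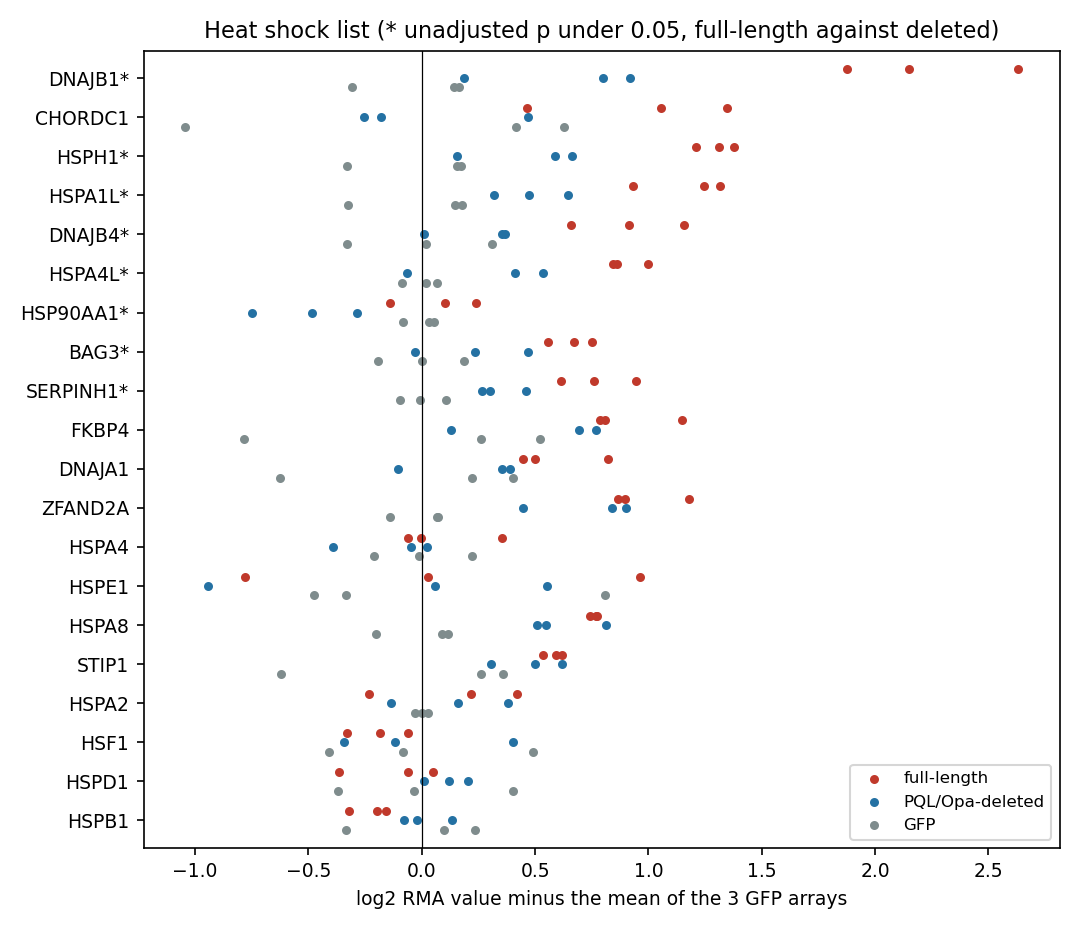
Log2 RMA value of each of the 20 measured heat shock genes minus the mean of the 3 GFP arrays (horizontal axis), 1 point per array, with genes ordered by the difference between the constructs and stars marking an unadjusted p under 0.05 (limma). In 10 genes the full-length arrays (red) all lie above the PQL/Opa-deleted arrays (blue), with DNAJB1 the widest apart at 1.58.

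A pair of rows with several gene symbols, given by row number because no single gene can be assigned, came closest to passing after MED12. Row 2363784, with 2 symbols, had log2 values of 6.86, 6.94 and 6.69 with full-length MED12, 5.61, 5.46 and 5.40 with the deleted form and 4.35, 4.67 and 4.35 with GFP. Row 3391149, with 3 symbols, had 3.87, 4.19 and 4.36 with full-length MED12, 2.59, 2.49 and 2.47 with the deleted form and a mean of 1.81 with GFP. Both were ordered like most of the heat shock genes, with the deleted form between the others and no overlap between the constructs. The heat shock list had 9 genes without a row of their own, HSPA6 and CRYAB among them. Whether these rows hold any of the 9 is not stated here, so they may not be separate from that list. Their differences were 1.34 ± 0.17 (SE; limma, adjusted p = 0.0529) and 1.62 ± 0.23 (SE; limma, adjusted p = 0.122). Both passed without shRNA replicate 1 (limma, adjusted p = 0.0428 for each).

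Interferon-stimulated genes, many of which encode antiviral proteins, lay on the other side of 0. Interferons and sensors of foreign nucleic acid switch them on through the interferon-stimulated response element. Of 40 listed genes 35 had a row of their own, 28 had lower means with full-length MED12 than with the deleted form, and the median difference was -0.18. At an unadjusted p under 0.05, 2 of the 35 were lower (against 0.464% of all rows) and 0 higher, and 0 passed after adjustment (limma). In 6 genes all full-length arrays lay below all PQL/Opa-deleted arrays (against 2.79% of all rows), and in 1, ISG15, they lay above. The count of 2 was 1 without PQL/Opa-deleted replicate 2 or 3 and 5 without replicate 1. This list too was known from earlier results.

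IFIT3 is shown as the member with the smallest p. It has 2 listed starts, and the first whose promoter held a match is shown. Its RefSeq promoter, at chr10:89327747-89328046 on the plus strand (GRCh38.p14), has in capitals 2 matches to the core of the response element, GAAANNGAAA or TTTCNNTTTC, starting 156 and 122 bases before the start.
IFIT3: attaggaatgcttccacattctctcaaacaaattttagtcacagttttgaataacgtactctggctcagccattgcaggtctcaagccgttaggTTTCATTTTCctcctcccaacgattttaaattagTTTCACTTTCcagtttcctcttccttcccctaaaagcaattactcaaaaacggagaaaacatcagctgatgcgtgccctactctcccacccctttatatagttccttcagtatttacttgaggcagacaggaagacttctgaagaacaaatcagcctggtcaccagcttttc
The core was present in 3.57% of all promoters and in 4.38% of genes, against 21 of 28 interferon genes with a promoter in the table. It was in both genes with an unadjusted p under 0.05, IFIT3 and IFI44, and in 19 of the 26 others.

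IFIT3, which belongs to a family of proteins that act on viral RNA, had log2 values of 3.90, 3.59 and 4.53 with full-length MED12, 4.48, 5.32 and 5.04 with the deleted form and 3.43, 3.45 and 3.81 with GFP. Full-length replicate 3 lay just above PQL/Opa-deleted replicate 1, so the groups overlapped. The difference was -0.94 ± 0.27 (SE) and did not pass (limma, adjusted p = 1.00). IFI44 had 3.82, 3.85 and 3.59 with full-length MED12, 4.03, 4.17 and 4.24 with the deleted form and 3.12, 3.39 and 3.21 with GFP, a difference of -0.39 ± 0.16 (SE) with no overlap. RSAD2, the antiviral enzyme viperin, had -0.48 ± 0.22, IRF7, a transcription factor of the interferon response, had -0.28 ± 0.15, and IFI6 had -0.31 ± 0.17 (SE). ISG15, a ubiquitin-like modifier, went the other way, at 4.46, 4.52 and 3.99 with full-length MED12, 3.98, 3.84 and 3.92 with the deleted form and a mean of 3.62 with GFP, a difference of 0.41 ± 0.20 (SE).

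Beside the GFP arrays the interferon list had a median of 0.10 with full-length MED12 and 0.27 with the deleted form. The mean of full-length MED12 lay between those of GFP and the deleted form in 19 of 35 genes. Its mean was above that of GFP in 23 genes, and the mean of the deleted form was in 29. The mean log2 value over the 35 genes was 3.64, 3.61 and 3.71 in the full-length arrays, 3.72, 3.87 and 3.83 in the PQL/Opa-deleted arrays and 3.55, 3.42 and 3.53 in the GFP arrays. The construct groups lay next to each other here, with full-length replicate 3 close to PQL/Opa-deleted replicate 1.

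**Figure D4:**
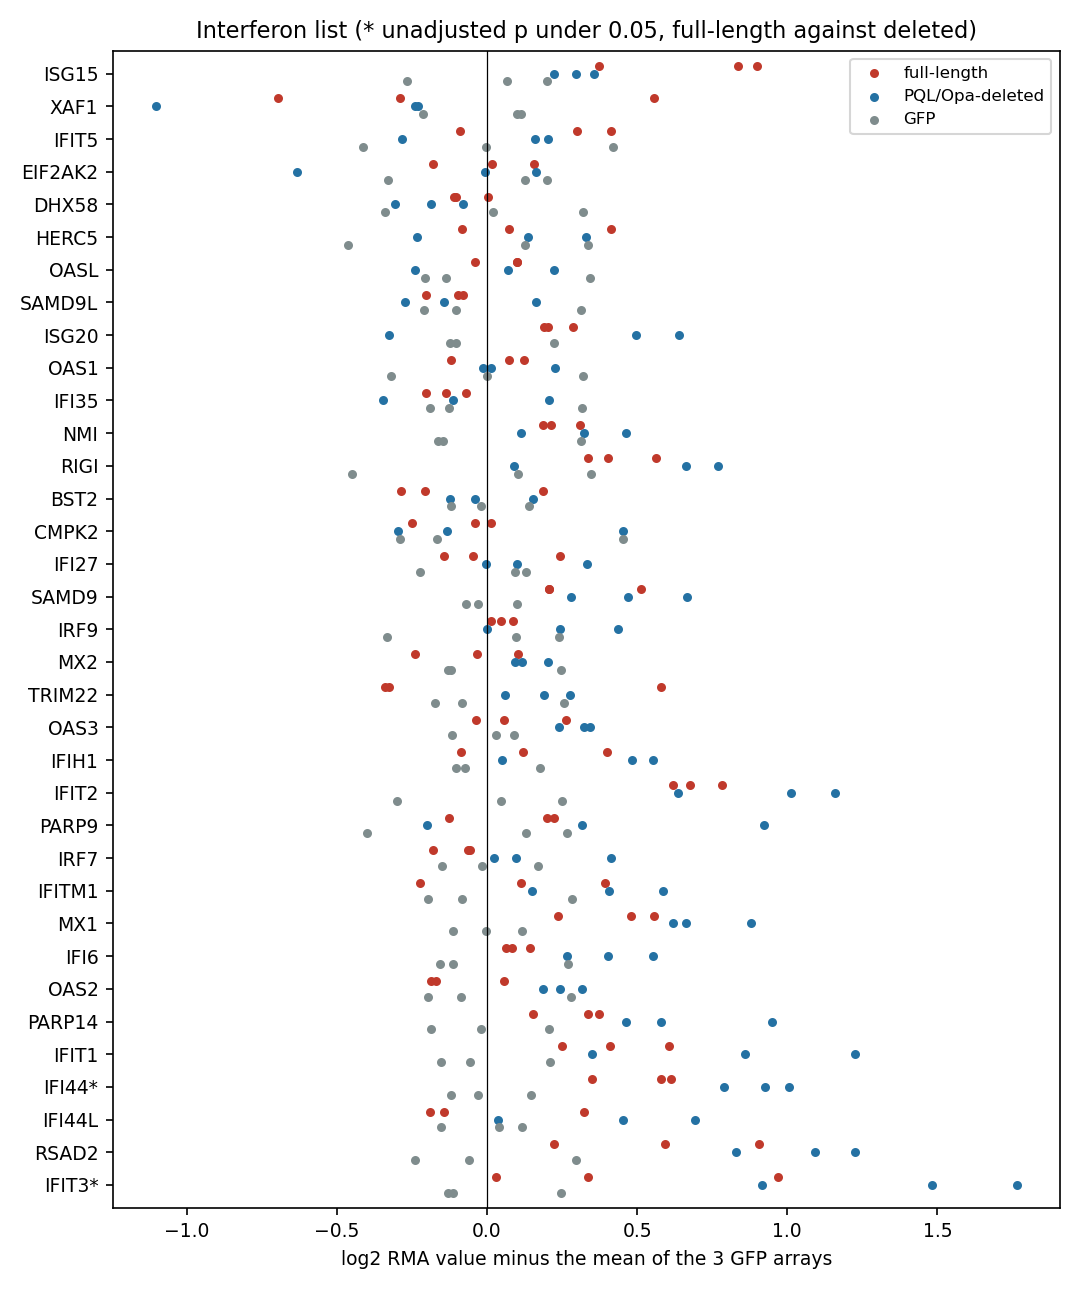
Log2 RMA value of each of the 35 measured interferon-stimulated genes minus the mean of the 3 GFP arrays (horizontal axis), 1 point per array, ordered by the difference between the constructs, with stars marking an unadjusted p under 0.05 (limma). The PQL/Opa-deleted arrays (blue) lie to the right of the full-length arrays (red) in the lower rows, without overlap in 6 genes.

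The lists for the proteins known to bind the PQL region had medians close to 0, and the Hedgehog list, which is not one of these, is given beside them. In the list of Wnt/beta-catenin effectors and targets 0 of 25 measured genes had an unadjusted p under 0.05 (limma), with a median difference of 0.02, and the same count held for 16 SOX9 and cartilage genes, with a median of 0.01. It also held for 13 genes of REST, its corepressors and G9a (median -0.02), for 29 neuronal genes that REST represses (median 0.04) and for 12 Hedgehog pathway genes (median -0.08, with 2 above 0). With 0.769% of all rows higher and 0.464% lower at that level, a count of 0 in lists of this size is near the background and no result about these pathways. The intervals say what size of difference in array value remains possible. For CTNNB1, which encodes beta-catenin, the 95% interval was -0.59 to 0.44, for AXIN2, a feedback inhibitor in the Wnt pathway, -0.29 to 0.35, and for MYC -0.78 to 0.19. For SOX9 it was -0.20 to 0.47, for EHMT2, the gene of G9a, -0.51 to 0.21, for REST -0.38 to 0.48 and for the Hedgehog transcription factor GLI3 -0.25 to 0.35. These intervals all lie inside a 2-fold difference, and they do not show that the constructs act alike.

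Over the 23 lists other than heat shock and interferon, medians ranged from -0.15, for cytosolic ribosomal proteins, to 0.10, for core Mediator. Among their 505 list entries 5 were higher and 4 lower at an unadjusted p under 0.05 (limma), and 17 of the lists held none. MED12 itself was 1 of the 5, and 3 of the 4 were replication-dependent histone genes. Over all rows 0.769% were higher and 0.464% lower at that level, so the pooled counts lie near the background. The histone count, 3 of 41, lies above it. EGR1, a transcription factor of the immediate early response to growth factors, had 6.44, 6.46 and 6.47 with full-length MED12, 5.95, 5.79 and 6.03 with the deleted form and a mean of 5.79 with GFP. Its construct groups did not overlap, and the difference was 0.53 ± 0.15 (SE), while the 26 immediate early genes had a median of 0.07. DDIT4, a stress-induced inhibitor of mTOR signalling on the list of ATF4 targets, had 5.08, 4.94 and 4.86 with full-length MED12, 4.21, 4.21 and 4.12 with the deleted form and a mean of 4.15 with GFP. Its difference was 0.78 ± 0.26 (SE), and the 28 targets had a median of -0.02. GINS4 and GINS3, subunits of the replicative helicase, had 0.54 ± 0.23 and 0.36 ± 0.16 (SE), in a list of 31 replication genes with a median of 0.01. Of 41 replication-dependent histone genes 28 had lower means with full-length MED12, with a median of -0.12, and H4C4 and H2AC11 had -0.89 ± 0.35 and -0.52 ± 0.21 (SE). Histone genes are near-identical in sequence, and how their probes divide the signal is not known here. None of these genes passed after adjustment.

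**Figure D5:**
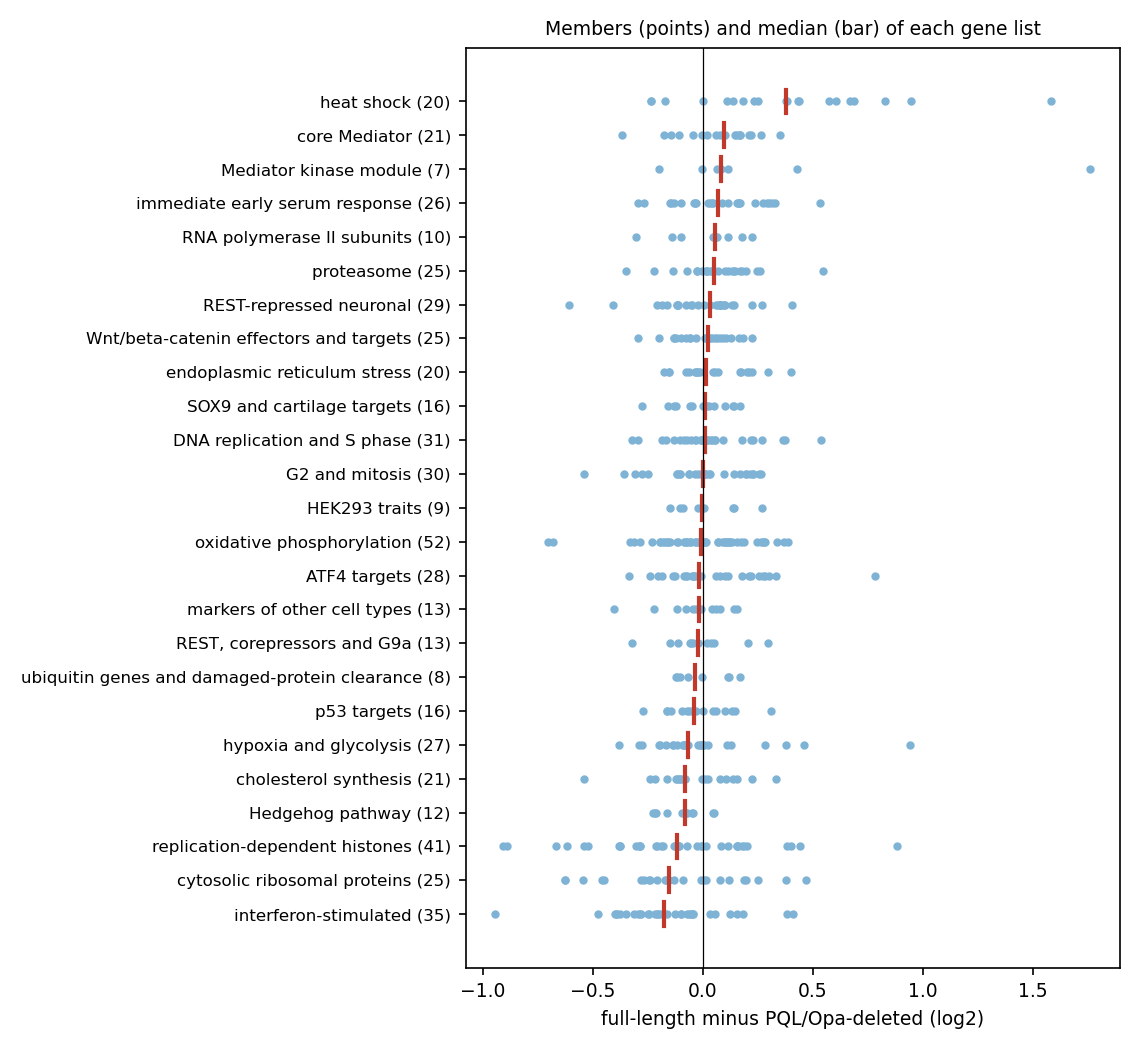
Difference between the constructs (full-length minus PQL/Opa-deleted, log2, horizontal axis) for the measured members (points) and the median (red bar) of 25 gene lists, with the number of measured members in brackets. Heat shock has the highest median, at 0.38, and the interferon-stimulated genes the lowest, at -0.18.

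Ranked by p among the rows whose construct groups did not overlap, the 12 first rows with higher values had differences of 0.53 to 1.76. After MED12 and DNAJB1 they were KRTAP3-1, a hair keratin-associated protein (0.77 ± 0.17), GPRASP2, which sorts G protein-coupled receptors (0.59 ± 0.16), MINPP1, an inositol phosphate phosphatase (0.56 ± 0.16), EGR1, NCRNA00257 (0.67 ± 0.20), ENSA (1.09 ± 0.32), NCBP2AS2 (0.66 ± 0.20), TEX9 (0.54 ± 0.16), AMER3 (0.54 ± 0.17) and CBX1 (0.72 ± 0.22, all SE). CBX1, a heterochromatin protein that binds methylated histone H3, had 5.63, 5.16 and 5.89 with full-length MED12, 4.74, 4.73 and 5.06 with the deleted form and a mean of 4.81 with GFP. Here the GFP level lay close to that of the deleted form. In KRTAP3-1 it lay with full-length MED12: 3.01, 2.92 and 3.27 with full-length MED12, 2.53, 2.13 and 2.24 with the deleted form and a mean of 3.04 with GFP.

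The 12 first rows with lower values had differences of -0.90 to -0.45. They were PRPH2, a structural protein of photoreceptors (-0.70 ± 0.18), GABARAP, an ATG8 protein of autophagosomes (-0.90 ± 0.26), BTN3A2, a butyrophilin (-0.54 ± 0.16), TMSB10, which binds actin monomers (-0.73 ± 0.22), ATP5PB, a subunit of the ATP synthase stalk (-0.68 ± 0.20), MPRIP, which binds myosin phosphatase (-0.85 ± 0.25, all SE), and GTSF1L, TRMT44, TM4SF1, FABP3, LRRC18 and NUDT9P1. TMSB10 had 6.69, 7.28 and 6.97 with full-length MED12, 7.93, 7.61 and 7.59 with the deleted form and 6.57, 7.09 and 7.04 with GFP. Only the deleted form stood apart in this gene. GABARAP had the same order, with 2.57, 3.16 and 2.83 with full-length MED12, 3.90, 3.75 and 3.61 with the deleted form and a mean of 2.61 with GFP.

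The mean of full-length MED12 lay outside the span of the PQL/Opa-deleted and GFP means in 12 of the 12 higher rows and in 9 of the 12 lower rows. The mean of the deleted form lay outside the span of the full-length and GFP means in 8 and 10 of them. Full-length MED12 lay farther from GFP than the deleted form did in 6 rows of each set, and the deleted form lay farther in the other 6. Ranking by this contrast favours rows where either construct is extreme, so these counts are a description. Both construct means were under 4 in 6 of the higher and 9 of the lower rows. Among these, ENSA had means of 2.08 with full-length MED12 and 0.99 with the deleted form. ATP5PB had 1.67 and 2.35 in that order, a low level at which a difference may not reflect the transcript. Apart from MED12, none of these rows passed (limma, adjusted p = 0.923 for DNAJB1 and 1.00 for the others).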

How the data were processed

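RNA from 12 samples, 4 groups of 3 biological replicates per the labels, was amplified, labelled with biotin and hybridised to arrays with 1 colour. Each array has 1 deposited log2 value per row. Partek, RMA and the build hg18 are named in the submitters' processing notes, and their versions, the probe set level and filters, if any, are not stated in the sources used here. The values were used as deposited, and 0 columns were left out. Gene symbols come from the platform annotation, and a RefSeq table (GRCh38.p14) held the Entrez identifiers of 14404 of the 14432 single-symbol rows, with 0 renamed. Its build differs, so no row positions are given.

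All 12 arrays and 22011 rows entered a limma 3.58.1 fit of the 4 group means in R 4.3.3 (lmFit, then eBayes with no trend; degrees of freedom were 8 residual and 3.52 prior). The contrast was full-length minus PQL/Opa-deleted MED12, two-sided, adjusted by Benjamini-Hochberg over every row of the table, at a threshold of 0.05. Adjusted p-values come from this fit unless a setting is named, and they set a difference against the spread between replicates. The smallest p of an exact permutation test with 3 arrays a group is 0.1. Precision is limited by the small number of arrays. The procedure was tested on simulated data with independent noise in each array, which does not cover an effect shared by same-numbered arrays.

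Deviations from the group means correlated at 0.24, 0.08 and 0.22 between same-numbered arrays of the 2 constructs. Replicate 1 had the highest median and the lowest standard deviation of values in every group. The labels do not state what a replicate number marks, and the numbers were not taken as pairs. Any effect shared by same-numbered arrays therefore stays in the spread of this fit, and a fit with a replicate block is given at the end. Named genes were MED12, MED12L, rows past the threshold, the 12 rows of smallest p in each direction without overlap between the constructs, the 6 heat shock and 6 interferon members of smallest p, and up to 2 members of each other list at an unadjusted p under 0.05. BAG3, SERPINH1 and the other heat shock members, the remaining kinase module genes, CTNNB1, AXIN2, MYC, SOX9, EHMT2, REST, GLI3 and rows over 2-fold were named outside this rule. The comparison, the 25 lists and this rule were chosen with earlier results of these data known. Where a gene had several rows, the one with the highest mean over the 12 arrays stood for it in the lists. Alternatives were other sets of arrays, a replicate block, quantile or scale normalization, a filter on level, another prior and array weights.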

Additional observations from a re-analysis of the deposited data

How the results depend on the processing

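The difference of MED12 kept its sign in all 21 alternatives, between 1.61 and 1.92, and its adjusted p (limma) ranged from 0.00206 to 0.365. It did not pass in the 6 construct arrays alone (1.76, adjusted p = 0.116), with a trended robust prior (1.76, adjusted p = 0.0928) or without the 3 arrays of least spread, which are replicate 1 of the deleted form, GFP and shRNA (1.61, adjusted p = 0.0622). Leaving out 1 array gave 1.61 to 1.92 for MED12 (adjusted p 0.0148 to 0.365), 0 to 3 rows past the threshold, 5 to 8 heat shock members at an unadjusted p under 0.05, and -0.29 to -0.11 for MED12L. Over all rows the count past the threshold was 1 in the reported fit. It was 2 after quantile normalization and 2 with rows above the median level only, 4 with array weights, and 0 with the trended prior (188 rows with 1 symbol at an unadjusted p under 0.05) and without the 3 arrays (434 such rows). With the 6 construct arrays alone the 1 row past the threshold was another one, row 3635903 (-2.32, limma, adjusted p = 0.0489). That row is not among those with 1 gene symbol. In the fit with a replicate block MED12 passed (adjusted p = 0.0188), the count past the threshold stayed at 1, 360 rows with 1 symbol had an unadjusted p under 0.05 in place of 178, and 5 interferon members were lower in place of 2. In 5 of 6 arrays the best correlation was with the array of the same number, a hint from the data and not from the design. Array weights gave PQL/Opa-deleted replicate 1 a weight of 0.306. The interferon count of 2 became 5 after quantile normalization, 8 with array weights and 6 without the 3 arrays. The 41 named genes kept their sign in all 843 values under the alternatives. Of 25 list medians 8 moved by over 1 SD in some alternative, that of heat shock to 0.26 without PQL/Opa-deleted replicate 1. The cause of these shifts was not tested.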
